A study of Mus with 10 samples.

Results

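Solute carriers are membrane proteins that move amino acids, sugars, ions, metals, nucleosides, lipids and cofactors across the cell surface or between organelles and the cytosol. Lymphocytes that become active take up more glucose, amino acids and iron, and the carriers that bring these in are under the control of cytokine signals, mTORC1 and MYC. The solute carrier genes expressed by liver type 1 innate lymphoid cells (ILC1s) were compared here between mice that have the activating receptor NKp46, which *Ncr1* encodes, and mice that lack it. They were chosen by 2 conditions, a gene name that starts with Slc followed by a family number and a letter, and at least 10 counts in each of the 10 libraries. Of 376 such names among 24564 listed genes, 169 met both conditions, after *Slc16a1* and *Slc16a3* had been set apart. Another 205 fell under the minimum, and 90 of those had no count in any library. Since the minimum applied to both genotypes, a gene near 0 in either of them could not be among the 169. For 129 of the 169 the 95% interval of the difference between the genotypes lay within 1.5-fold, and 2 were called lower in *Ncr1gfp/gfp* ILC1s, the fatty acid carrier *Slc27a6* and *Slc35f2* (1.18%, against 0.532% of all tested genes called lower).

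ILC1s are tissue-resident lymphocytes that make interferon-γ. The cells were sorted from the livers of C57BL/6 mice of 6 to 8 weeks and either sex, with 5 libraries labelled *Ncr1*-WT (*Ncr1+/+*) and 5 labelled *Ncr1*-KO (*Ncr1gfp/gfp*). In *Ncr1gfp/gfp* mice a *gfp* reporter replaces *Ncr1* in every cell of the body, so the deletion is not limited to ILC1s. *Ncr1+/+* ILC1s were gated with an antibody to NKp46 and *Ncr1gfp/gfp* ILC1s by GFP, both as lineage-negative cells (CD3 among the lineage markers) that had NK1.1 and CD49a and lacked CD49b. The labels name no treatment for either group, and the study speaks of RNA pools without saying how many mice went into a library, so that p-values measure the spread between these libraries. Total counts were 17996935 to 22623133 per *Ncr1+/+* library and 15796253 to 21975879 per *Ncr1gfp/gfp* library, at which 3 counts correspond to 0.132 to 0.1905 CPM, the counts of a gene relative to the library total. Levels were expressed as CPM after TMM scaling of the library sizes.

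The targeted gene kept 12.7% of its *Ncr1+/+* mean in *Ncr1gfp/gfp* ILC1s, which is -2.97 on the log2 scale (adjusted p = 2.64e-09, quasi-likelihood fit of edgeR, p-values adjusted by Benjamini-Hochberg over all 11463 tested genes). The summed level of 7 ILC1 markers was 3989 to 4251 CPM in *Ncr1+/+* and 3973 to 4271 CPM in *Ncr1gfp/gfp* libraries. All 7 were detected, with *Itga1*, whose product CD49a was used for the gate, higher and *Il7r* lower at an adjusted p under 0.05. *Klrb1c*, the largest of the 7, had means of 1311 CPM in *Ncr1+/+* and 1333 CPM in *Ncr1gfp/gfp* ILC1s. It encodes NK1.1, which the gate also required, so that the sum is fixed in part by the sort. Within that sum *Il7r* had means of 166 CPM in *Ncr1+/+* and 84.6 CPM in *Ncr1gfp/gfp* ILC1s. Marker sums of T cells and NK cells were higher in *Ncr1gfp/gfp* libraries, whereas that of B cells overlapped. The sum of 5 B cell markers was 0.561 to 5.99 CPM in *Ncr1+/+* and 2.49 to 4.98 CPM in *Ncr1gfp/gfp* libraries. The sum of 7 T cell markers was 460.4 to 579 CPM in *Ncr1+/+* and 633 to 835 CPM in *Ncr1gfp/gfp* libraries, and 3 of the 5 tested ones (*Cd3e*, *Cd3g* and *Cd8a*) were higher at an adjusted p under 0.05. Most of that sum was *Cd3g*, at 501 ± 53.1 CPM in *Ncr1+/+* and 687 ± 74.6 CPM in *Ncr1gfp/gfp* ILC1s (mean ± SD, n = 5), while *Cd3e* and *Cd3d* had means of 5.72 and 6.62 CPM in *Ncr1+/+* and 21.1 and 13.6 CPM in *Ncr1gfp/gfp* ILC1s. The sum of 6 NK cell markers was 94.8 to 119 CPM in *Ncr1+/+* and 134 to 210.4 CPM in *Ncr1gfp/gfp* libraries, with *Itgam* past the threshold. Hepatocyte markers were highest in *Ncr1+/+* replicate 1 (193 CPM summed) and *Ncr1gfp/gfp* replicate 3 (227 CPM), and without *Trf*, which the other libraries also had, their sum was at most 82.4 CPM in any library. The summed neutrophil markers stayed at or under 11.96 CPM in every library, and those of erythroid cells at or under 10.1 CPM. The part of these cell type differences in the results below was not tested, and in bulk RNA fewer cells of a type cannot be told apart from less RNA per cell.

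Families of mitochondrial, nucleotide sugar and zinc carriers met the minimum for most of their genes in liver ILC1s, whereas families known from kidney, gut, liver and neurons were largely below the minimum. Of the Slc25 family, whose members sit in the inner mitochondrial membrane with few exceptions, 40 of 47 listed genes met the minimum. The same was true of 21 of 27 genes of the Slc35 family, which supplies the Golgi and endoplasmic reticulum with nucleotide sugars, of 11 of 14 ZIP zinc importers (Slc39), of 6 of 10 ZnT zinc exporters (Slc30) and of all 3 magnesium carriers of the Slc41 family. By contrast it held for 3 of 26 organic ion transporters of the Slc22 family and for 1 of 22 of the Slc6 family of neurotransmitter and amino acid transporters, and for none of the 6 sodium-coupled carboxylate carriers (Slc13), the 5 sodium-calcium-potassium exchangers (Slc24) or the 3 phosphate carriers of the Slc34 family. In all, 41 of the 49 families in the table had a gene that met the minimum. These counts of genes follow from the rule itself and carry no test.

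The genes closest to the minimum were *Slc22a21*, *Slc25a47* and *Slc39a8*, which had 10 counts in their lowest library. Just outside it were *Slc22a17*, with 8 counts in its lowest library, *Slc29a4* with 6, and *Slc11a1*, *Slc6a8* and *Slc24a3* with 5 each. A minimum of 5 counts would have kept 174 genes and one of 20 counts 164. Among the 205 genes left out, 17 were tested, and the smallest adjusted p among them was 0.247 for *Slc37a2*, at a log2 fold change of -1.19 (edgeR's quasi-likelihood test).

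Some well-known carriers failed the minimum because of 1 or 2 libraries. The peptide transporter *Slc15a2* had raw counts of 794, 540, 1606, 482 and 0 in the *Ncr1+/+* and 207, 98, 443, 806 and 539 in the *Ncr1gfp/gfp* libraries, with 0 counts in *Ncr1+/+* replicate 5 and 482 or more in the other 4. The iron exporter ferroportin, *Slc40a1*, which liver macrophages are known for, had raw counts of 2, 47, 52, 39 and 93 in *Ncr1+/+* and 3, 30, 61, 92 and 26 in *Ncr1gfp/gfp* libraries. The summed macrophage markers were 7.51 to 52.9 CPM in the former and 6.76 to 42.1 CPM in the latter. Its lowest counts were in the first replicate of either genotype, and its values overlapped throughout (adjusted p = 1.000, edgeR's quasi-likelihood test). Of carriers typical of hepatocytes, the bile acid carrier *Slc10a1* and the glutamine carrier *Slc38a3* were close to 0 outside a single library. *Ncr1gfp/gfp* replicate 3 had 31 and 43 counts of them, against at most 6 and 7 in any other library. This did not hold for *Slc27a5*, with raw counts of 1, 15, 17, 16 and 10 in *Ncr1+/+* and 0, 10, 27, 3 and 8 in *Ncr1gfp/gfp* libraries.

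Scaled to exon length, the levels of the 169 genes ran from 0.299 to 122 CPM per kb, with a median of 9.06. For each transported class the highest gene is given as CPM per kb, a mean over the 10 libraries. Within the mitochondrial family, the phosphate carrier *Slc25a3* was at 122, followed by the ADP/ATP carrier *Slc25a5* at 54.4 and the oxoglutarate carrier *Slc25a11* at 52.2. The choline transporter-like gene *Slc44a2* reached 104 and led the carriers of lipids and organic ions, while the phosphate importer *Slc20a1* led those of inorganic ions at 77.9. Amino acid carriers were led by a pair known for glutamine and other small neutral amino acids, *Slc1a5* at 67.9 and *Slc38a2* at 67.1. Of the sugar carriers, *Slc50a1* was at 64.7 and the high-affinity glucose transporter *Slc2a3* (GLUT3) at 54.5, against 17.7 for *Slc2a1* (GLUT1). The concentrative, sodium-coupled nucleoside transporter *Slc28a2* was at 44.9 and its equilibrative counterpart *Slc29a1* at 6.80. Among metal carriers *Slc39a7*, which releases zinc from the endoplasmic reticulum, was highest at 40.5, and in the nucleotide sugar class *Slc35e1*, whose substrate is not settled, was highest at 27.8. *Slc25a4* and *Slc25a5* have close copies in the genome, so their counts, made from reads that map to a single place, are uncertain.

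**Figure D1:**
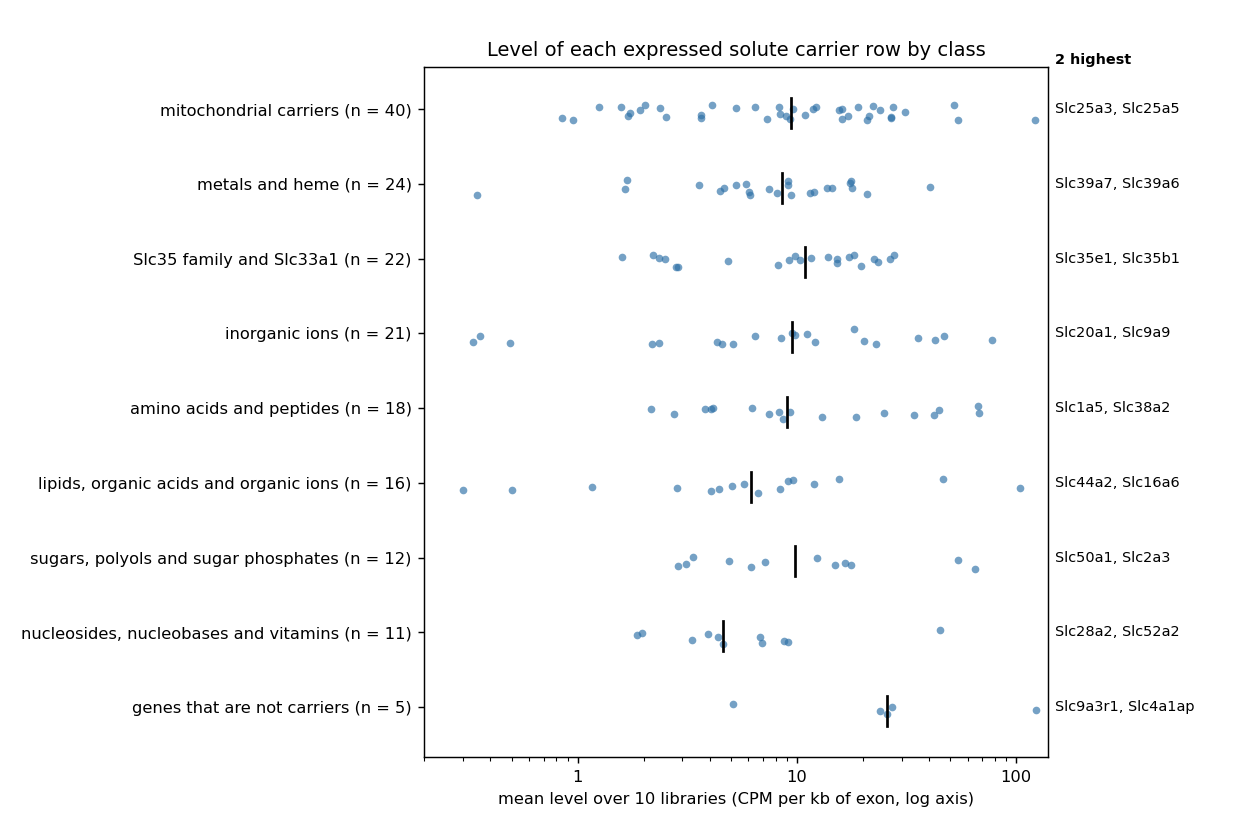
Mean level of each of the 169 genes over the 10 libraries, in CPM per kb of exon on a log axis, by class. Each point is a gene, the vertical line is the class median, and the 2 highest genes of each class are named at the right. The highest points, *Slc25a3* and *Slc9a3r1*, lie at 122 CPM per kb.

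A gene was called, by the thresholds of the study's methods, when its adjusted p was under 0.05 and its fold change was either above 1.5 or below 0.7. By this rule 2 of the 169 genes were called in *Ncr1gfp/gfp* as compared with *Ncr1+/+* ILC1s, and both were lower. *Slc27a6*, a fatty acid transport protein, and *Slc35f2*, a cell-surface member of the Slc35 family, were the genes called. This was 1.18% of the 169, against 0.733% of all tested genes called in either direction and 0.532% called lower. Without a fold threshold the same 2 genes remained (1.18%, against 1.35% of all tested genes). Among genes with at least 10 counts in each library the share was 1.45%. None of the 169 was higher, where 0.567% of all tested genes were. DESeq2 and limma-voom also gave no gene that was higher, and 7 of the 169 were higher at an unadjusted p under 0.05 in edgeR. Including those that were lower, 20 genes had an unadjusted p under 0.05, or 11.8%, against 11.4% of all tested genes. All of these shares lie near the background, apart from the share called lower, which rests on 2 genes.

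All 169 genes passed the filter on low counts and were tested, and their summed level overlapped between the genotypes. Their summed CPM was 8688 to 9159 in *Ncr1+/+* and 8673 to 8976 in *Ncr1gfp/gfp* libraries. In *Ncr1gfp/gfp* ILC1s 87 had a higher and 82 a lower fitted level, with a median log2 fold change of 0.01, beside 0.00 over all tested genes. The median size of the change was 0.106 on the log2 scale, and 0.105 over all tested genes. For 129 genes, or 76.3%, the 95% interval of the fold change lay within 1.5-fold in either direction, and it did so for 70.9% of all tested genes. Here and below, higher and lower without a test stand for the sign of the fitted log2 fold change. Differences above 0.5 on the log2 scale were found for 7 genes, and 6 of those 7 had a mean under 20 CPM, as did 61 of the 169.

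**Figure D2:**
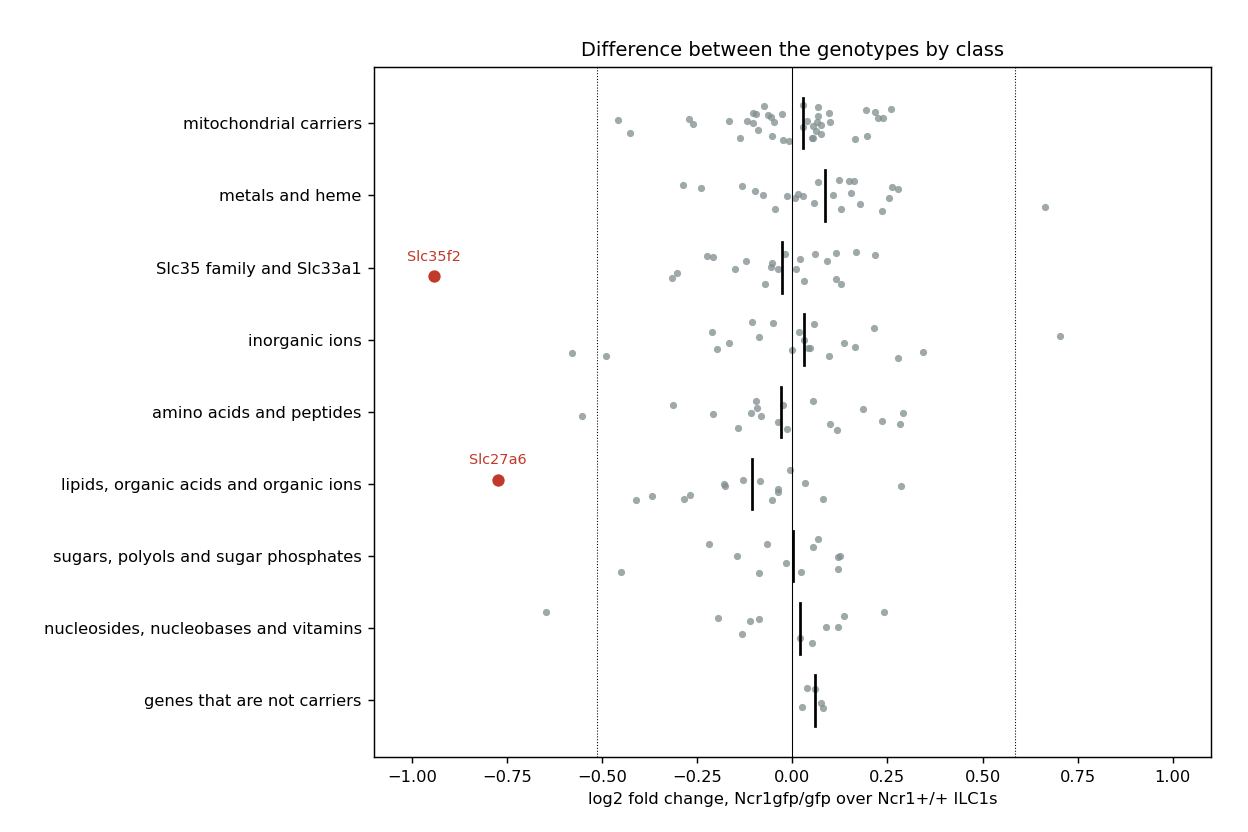
Log2 fold change of each of the 169 genes, *Ncr1gfp/gfp* over *Ncr1+/+* ILC1s, by class. Each point is a gene, solid lines mark class medians and dotted lines mark fold changes of 0.7 and 1.5. The 2 genes with an adjusted p under 0.05, *Slc27a6* and *Slc35f2*, are in red at -0.77 and -0.94.

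*Slc27a6* belongs to the fatty acid transport proteins, which bring long-chain fatty acids into cells and join them to coenzyme A. It lies on chromosome 18 from 58715894 to 58772523 and overlaps no other listed gene. No build is named for these coordinates, and they are not those of mm10. Its level was 34.6, 36.97, 38.3, 43.3 and 42.9 CPM in *Ncr1+/+* replicates 1 to 5 and 26.03, 15.6, 23.3, 26.2 and 23.7 CPM in *Ncr1gfp/gfp* replicates 1 to 5. The 2 groups did not overlap, with all *Ncr1gfp/gfp* values under the *Ncr1+/+* range and replicate 2 the lowest of all. The means were 39.2 ± 3.79 CPM in *Ncr1+/+* and 22.97 ± 4.32 CPM in *Ncr1gfp/gfp* ILC1s (mean ± SD, n = 5), which corresponds to a log2 fold change of -0.77 (standard error 0.13, 95% interval -1.04 to -0.51). This difference exceeded the spread between libraries (adjusted p = 0.00175 in the same edgeR fit). The single-gene test gave p = 0.00794 (two-sided exact permutation test), the smallest that 5 libraries against 5 allow. Leaving out 1 library at a time kept the call in all 10 fits, with log2 fold changes between -0.83 and -0.66. T cell and NK cell marker sums were higher in *Ncr1gfp/gfp* libraries, the genotype in which *Slc27a6* was lower. This held between the genotypes and not from library to library. *Ncr1+/+* replicate 1 had the lowest T cell sum of its genotype (460.4 CPM) and also its lowest *Slc27a6*. The part of these cell type differences in the result was not tested.

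Of the other 5 fatty acid transport proteins, *Slc27a1* and *Slc27a4* met the minimum. Scaled to exon length, the means were 11.97 CPM per kb for *Slc27a6*, 8.33 for *Slc27a4* and 4.41 for *Slc27a1*. *Slc27a4* had 31.01 to 36.3 CPM in *Ncr1+/+* and 27.1 to 36.8 CPM in *Ncr1gfp/gfp* ILC1s, at a log2 fold change of -0.04 (95% interval -0.25 to 0.17). *Slc27a1* had 15.3 to 23.4 CPM in *Ncr1+/+* and 12.9 to 19.6 CPM in *Ncr1gfp/gfp* ILC1s, at -0.13 on the log2 scale (-0.44 to 0.18). Neither passed the threshold, with adjusted p of 0.940 and 0.832 (edgeR's quasi-likelihood test).

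*Slc35f2* lies on chromosome 9 from 53619342 to 53665968 and likewise overlaps no other listed gene. Unlike most Slc35 proteins it sits at the cell surface. Its level was 8.69, 8.43, 7.30, 7.67 and 7.56 CPM in *Ncr1+/+* replicates 1 to 5 and 4.000, 3.02, 3.81, 4.04 and 5.77 CPM in *Ncr1gfp/gfp* replicates 1 to 5, from raw counts of 155, 191, 146, 152 and 139 in *Ncr1+/+* and 63, 66, 72, 68 and 97 in *Ncr1gfp/gfp* libraries. The genotypes did not overlap, with *Ncr1gfp/gfp* replicate 5 nearest to the *Ncr1+/+* range. The log2 fold change was -0.94 (standard error 0.22, 95% interval -1.41 to -0.48, adjusted p = 0.0324, edgeR's quasi-likelihood test). This call was less stable than that of *Slc27a6*. It was lost in 9 of the 10 fits that left out 1 library, where the adjusted p was at most 0.0802, and kept only without *Ncr1gfp/gfp* replicate 5, while the log2 fold change stayed between -1.09 and -0.85 throughout. Without *Ncr1+/+* replicate 1 and *Ncr1gfp/gfp* replicate 3, the libraries with the highest hepatocyte markers, *Slc27a6* remained called and *Slc35f2* had an adjusted p of 0.124.

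Without regard to the test, 6 genes were lower in every *Ncr1gfp/gfp* library than in every *Ncr1+/+* library, or 3.55%, against 1.82% of all tested genes, and none was higher in every one, against 1.28%. Besides *Slc27a6* and *Slc35f2* they were the zinc importers *Slc39a1* and *Slc39a7*, the lysosomal membrane gene *Slc35f6* and *Slc25a29*, a mitochondrial carrier of basic amino acids. *Slc39a1* was at 27.6, 27.04, 33.2, 29.1 and 30.7 CPM in *Ncr1+/+* replicates 1 to 5 and 21.7, 24.8, 26.4, 25.2 and 22.8 CPM in *Ncr1gfp/gfp* replicates 1 to 5. The gap between its groups was narrow, and its log2 fold change was -0.29 (95% interval -0.50 to -0.07, adjusted p = 0.225, edgeR's quasi-likelihood test). For *Slc39a7*, *Slc35f6* and *Slc25a29* the log2 fold changes were -0.13, -0.30 and -0.43, with adjusted p of 0.467, 0.346 and 0.650 from the same test. Of these 6 genes, *Slc39a1*, *Slc35f6* and *Slc25a29* lie outside the naming rule. Like others named below for a small p, they were singled out after their values were seen.

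**Figure D3:**
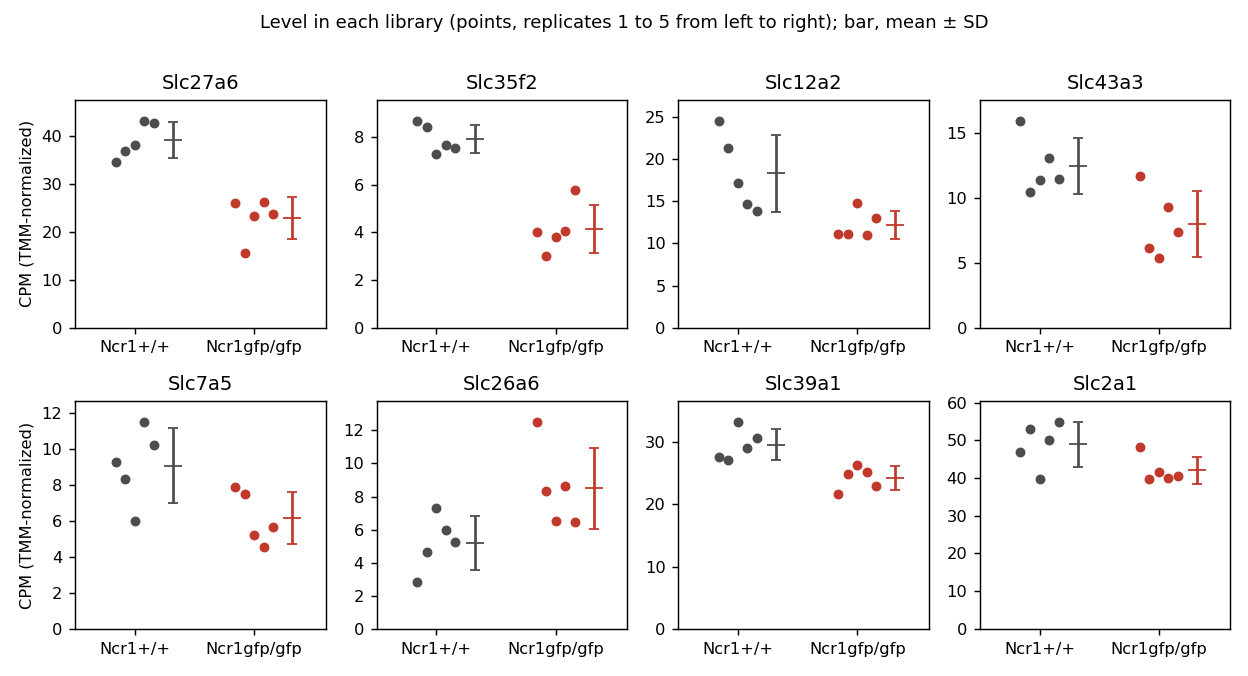
CPM of 8 genes in each library, with a vertical axis from 0 in each panel. Points are the 5 *Ncr1+/+* (grey) and 5 *Ncr1gfp/gfp* (red) libraries and bars are the mean ± SD. *Slc27a6*, *Slc35f2* and *Slc39a1* show no overlap between the genotypes, and the other 5 genes do overlap.

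Amino acid carriers came next in the comparison, since several are the entry points for nutrients that drive mTORC1. Of 69 listed genes 18 met the minimum. In *Ncr1gfp/gfp* ILC1s 7 were higher and 11 lower, none at an adjusted p under 0.05, and the median log2 fold change was -0.03. The summed level of the class was 1709 to 1864 CPM in *Ncr1+/+* and 1692 to 1862 CPM in *Ncr1gfp/gfp* libraries. *Slc1a5* (ASCT2) had 167 to 201 CPM in *Ncr1+/+* and 174 to 197 CPM in *Ncr1gfp/gfp* ILC1s, and its 95% interval on the log2 scale was -0.17 to 0.09. *Slc38a2* (SNAT2) differed by -0.11 (-0.29 to 0.07) and *Slc38a1* (SNAT1) by 0.12 (0.00 to 0.23). The intervals of these 3 glutamine carriers all lay within 1.5-fold.

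The large neutral amino acid transporter LAT1 is a dimer of *Slc7a5*, which carries the substrate, and the heavy chain *Slc3a2* (CD98), which also pairs with other light chains. Scaled to exon length, *Slc3a2* was at 44.6 CPM per kb, and *Slc7a5* at 2.17 was the lowest of the 18 genes. The heavy chain had a log2 fold change of -0.03 (-0.16 to 0.11). *Slc7a5* was at 9.25, 8.34, 6.000, 11.5 and 10.2 CPM in *Ncr1+/+* replicates 1 to 5 and 7.87, 7.50, 5.24, 4.58 and 5.65 CPM in *Ncr1gfp/gfp* replicates 1 to 5. The genotypes overlapped, because *Ncr1+/+* replicate 3 was under *Ncr1gfp/gfp* replicates 1 and 2. Its log2 fold change of -0.55 was the largest of the class and did not pass the threshold (95% interval -1.004 to -0.10, adjusted p = 0.294, edgeR's quasi-likelihood test). Another light chain, *Slc7a6* (y+LAT2), differed by -0.09 (-0.34 to 0.15).

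Carriers of the lysosomal membrane were also expressed. *Slc36a1* (PAT1), which lets amino acids out of lysosomes together with protons, was at 124, 114, 121, 132 and 112 CPM in *Ncr1+/+* replicates 1 to 5 and 109.6, 163, 153, 137 and 147 CPM in *Ncr1gfp/gfp* replicates 1 to 5. All *Ncr1gfp/gfp* libraries but replicate 1, the lowest of the 10, were above the *Ncr1+/+* range. The log2 fold change was 0.23 (0.06 to 0.41, adjusted p = 0.240, edgeR's quasi-likelihood test), and it passed the threshold at an adjusted p of 0.0265 when *Ncr1gfp/gfp* replicate 1 was left out. *Slc38a9*, which senses lysosomal arginine for mTORC1, differed by -0.09 (-0.34 to 0.15). *Slc38a7*, a lysosomal glutamine carrier, differed by -0.32 (-0.59 to -0.04, adjusted p = 0.343), and the aromatic amino acid carrier *Slc16a10* by 0.28 (0.04 to 0.52, adjusted p = 0.316), both from the same edgeR test and neither past the threshold. The counts of *Slc3a1*, a heavy chain known from kidney, come from a gene that overlaps *Prepl* on the other strand, and the library kit did not mark the strand, so that reads of both genes cannot be told apart.

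**Figure D4:**
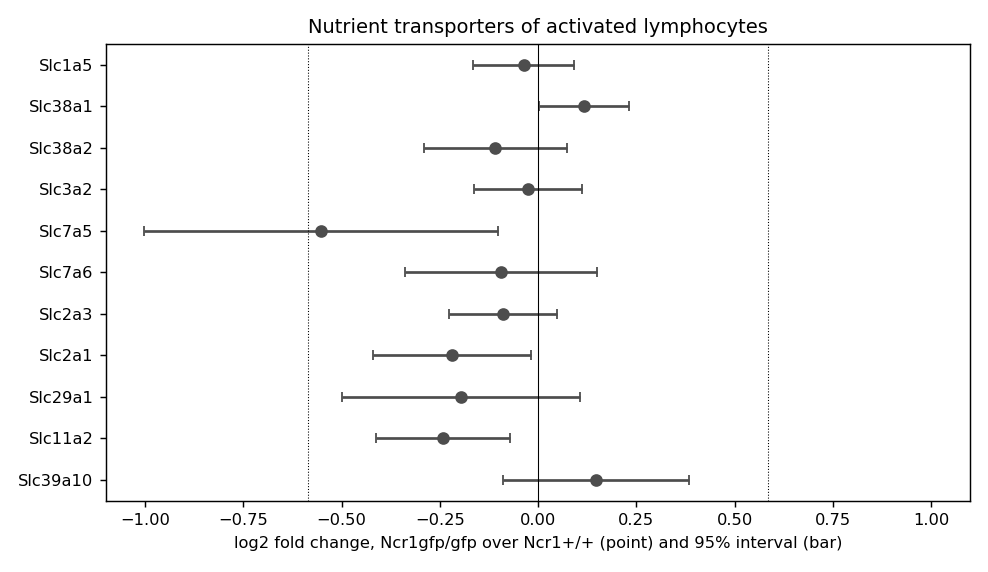
Log2 fold change of 11 nutrient transporters known from activated lymphocytes, *Ncr1gfp/gfp* over *Ncr1+/+* ILC1s, with 95% intervals from edgeR's quasi-likelihood fit. Dotted lines mark a 1.5-fold change in either direction. The intervals of 10 genes lie within these lines, and that of *Slc7a5* reaches beyond the lower one.

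The genes that sense and respond to amino acids were read from the same fit. This list holds genes of mTORC1 signalling and of the amino acid response along with *Myc*. Of its 23 tested genes 14 were higher, 9 lower and none passed the threshold in that fit. Over this and 5 other lists of partner genes, 77 of 89 genes were tested, 34 were higher and 43 lower. None had an adjusted p under 0.05 in the same fit (edgeR's quasi-likelihood test), and 10 had an unadjusted p under 0.05. DESeq2 gave 5 genes past the threshold (*Fth1*, *Hk3*, *Myc*, *Sesn3* and *Txnip*). Limma-voom and edgeR with DESeq2's size factors gave 1 (*Txnip*). The same gene passed in edgeR with upper-quartile factors and with at least 10 counts in every library. EdgeR without *Ncr1+/+* replicate 2 gave 2 (*Hk3* and *Txnip*), and edgeR without a filter on low counts gave 2 (*Hk3* and *Myc*). The smallest adjusted p of these lists was 0.0540, for *Txnip*, which restrains glucose uptake, at 675 ± 38.3 CPM in *Ncr1+/+* and 767 ± 19.8 CPM in *Ncr1gfp/gfp* ILC1s (mean ± SD, n = 5) and a log2 fold change of 0.19. The transcription factor gene *Myc*, whose product drives many nutrient carriers, was at 105, 78.4, 81.2, 84.7 and 90.1 CPM in *Ncr1+/+* replicates 1 to 5 and 79.9, 64.7, 69.9, 75.5 and 65.6 CPM in *Ncr1gfp/gfp* replicates 1 to 5. The lowest *Ncr1+/+* value was under the highest *Ncr1gfp/gfp* value. The log2 fold change of *Myc* was -0.30 (-0.48 to -0.12) and its adjusted p 0.0902 in edgeR. *Sesn3*, an inhibitor of mTORC1 signalling, was at 180.5 ± 6.60 CPM in *Ncr1+/+* and 205 ± 9.38 CPM in *Ncr1gfp/gfp* ILC1s (mean ± SD, n = 5), and the hexokinase gene *Hk3* at 7.58 ± 3.69 CPM in *Ncr1+/+* and 3.66 ± 0.768 CPM in *Ncr1gfp/gfp* ILC1s (mean ± SD, n = 5), with adjusted p of 0.117 and 0.116 from the same test.

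Among sugar carriers, 12 of 29 genes met the minimum, 6 higher and 6 lower in *Ncr1gfp/gfp* ILC1s with a median log2 fold change of 0.00. GLUT3 (*Slc2a3*), above *Slc2a1* and below *Slc50a1* in level per length, had 199 to 241 CPM in *Ncr1+/+* and 191 to 226 CPM in *Ncr1gfp/gfp* ILC1s. Its log2 fold change was -0.09 (-0.23 to 0.05). GLUT1 (*Slc2a1*) was at 46.9, 52.98, 39.8, 50.1 and 54.9 CPM in *Ncr1+/+* replicates 1 to 5 and 48.3, 39.6, 41.6, 40.1 and 40.6 CPM in *Ncr1gfp/gfp* replicates 1 to 5. All *Ncr1gfp/gfp* libraries but replicate 1 were within a narrow range, and *Ncr1+/+* replicate 3 fell inside it. The log2 fold change of *Slc2a1* was -0.22 (-0.42 to -0.02, adjusted p = 0.370, edgeR's quasi-likelihood test). The largest difference of the class was that of *Slc2a6* (GLUT6), a lysosomal hexose carrier, at 12.1 ± 1.24 CPM in *Ncr1+/+* and 8.85 ± 2.51 CPM in *Ncr1gfp/gfp* ILC1s (mean ± SD, n = 5) and a log2 fold change of -0.45 (-0.86 to -0.05, adjusted p = 0.353). *Slc37a4*, which carries glucose 6-phosphate into the endoplasmic reticulum, differed by 0.07 (-0.27 to 0.41). The counts of the inositol carrier *Slc5a3* are uncertain, as the gene overlaps *Mrps6* on the same strand. Of 8 tested genes of glucose uptake and trapping, 3 were higher and 5 lower. None was past the threshold in the edgeR fit of the 11463 tested genes, while *Txnip* or *Hk3* passed under other edgeR settings.

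Of 83 listed carriers of lipids, organic acids and organic ions, 16 met the minimum, the smallest share of any class. In *Ncr1gfp/gfp* ILC1s 3 of the 16 were higher and 13 lower, with a median log2 fold change of -0.11, where 49.3% of all tested genes were lower. *Slc27a6* was the only one of them with an adjusted p under 0.05, and no test was made of the class. The summed level was 864 to 912 CPM in *Ncr1+/+* and 787 to 914 CPM in *Ncr1gfp/gfp* libraries. *Slc44a2*, second among the carriers in level per length, had 359 to 397 CPM in *Ncr1+/+* and 342 to 378 CPM in *Ncr1gfp/gfp* ILC1s, a log2 fold change of -0.04 (-0.15 to 0.07). The carnitine importer *Slc22a5* differed by -0.08 (-0.38 to 0.21). The vesicular nucleotide carrier *Slc17a9* and the lysosomal sialic acid exporter *Slc17a5* differed by -0.27 and -0.29, with adjusted p of 0.621 and 0.495 (edgeR's quasi-likelihood test). Reads of *Slc16a6* cannot be told apart from those of *Arsg*, which overlaps it on the other strand.

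Of 33 listed metal and heme carriers 24 met the minimum, and 17 were higher and 7 lower, with a median log2 fold change of 0.09. None had an adjusted p under 0.05 in edgeR's quasi-likelihood test, 3 had an unadjusted p under 0.05 (1 higher and 2 lower), and limma-voom and DESeq2 also called none. The class sums overlapped, at 873 to 947 CPM in *Ncr1+/+* and 892 to 966 CPM in *Ncr1gfp/gfp* libraries. *Slc11a2* (DMT1), which moves iron out of endosomes after transferrin uptake, was at 96.998, 86.4, 86.6, 93.4 and 76.02 CPM in *Ncr1+/+* replicates 1 to 5 and 64.8, 74.5, 77.9, 71.3 and 83.01 CPM in *Ncr1gfp/gfp* replicates 1 to 5. *Ncr1+/+* replicate 5 was under *Ncr1gfp/gfp* replicates 3 and 5, so that the groups overlapped, and the log2 fold change was -0.24 (-0.41 to -0.07, adjusted p = 0.186, edgeR's quasi-likelihood test). Among 11 tested genes of iron handling 3 were higher and 8 lower, none past the threshold in edgeR. The ferritin heavy chain *Fth1* was nearest to it, with an adjusted p of 0.0764, at 214 ± 9.32 CPM in *Ncr1+/+* and 184 ± 11.7 CPM in *Ncr1gfp/gfp* ILC1s (mean ± SD, n = 5).

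Zinc moves into the cytosol through ZIP proteins (Slc39) and out of it through ZnT proteins (Slc30). *Slc30a7* (ZnT7), which loads zinc into the Golgi, was at 72.6, 66.9, 53.998, 59.05 and 55.7 CPM in *Ncr1+/+* replicates 1 to 5 and 72.8, 70.9, 65.7, 81.3 and 77.1 CPM in *Ncr1gfp/gfp* replicates 1 to 5. *Ncr1+/+* replicates 1 and 2 were within the *Ncr1gfp/gfp* range and the other 3 under it. It was the metal carrier with the smallest p among those with a higher fitted level, with a log2 fold change of 0.25 that did not pass the threshold (0.07 to 0.44, adjusted p = 0.211, edgeR's quasi-likelihood test). *Slc39a10*, a ZIP of lymphocytes, differed by 0.15 (-0.09 to 0.38), and *Slc39a6* by 0.13 (-0.04 to 0.30). The largest difference by size was that of *Slc39a8*, at 0.66, but it rested on counts of 12, 47, 22, 10 and 17 in *Ncr1+/+* and 15, 58, 33, 24 and 27 in *Ncr1gfp/gfp* libraries, and its interval ran from -0.39 to 1.71. The copper importer *Slc31a1* differed by 0.16 (-0.10 to 0.43). Of 10 tested partner genes of zinc, copper and magnesium handling, 5 were higher and 5 lower, none past the threshold.

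Inorganic ion carriers included the gene nearest to the threshold that did not pass it. Of 59 listed genes 21 met the minimum, 12 higher and 9 lower, with a median log2 fold change of 0.03. *Slc12a2* (NKCC1), which brings sodium, potassium and chloride into the cell together, was at 24.6, 21.3, 17.1, 14.6 and 13.9 CPM in *Ncr1+/+* replicates 1 to 5 and 11.2, 11.2, 14.8, 11.004 and 13.03 CPM in *Ncr1gfp/gfp* replicates 1 to 5. The 3 highest values were *Ncr1+/+* libraries, and *Ncr1+/+* replicates 4 and 5 were within the *Ncr1gfp/gfp* range. The means were 18.3 ± 4.53 CPM in *Ncr1+/+* and 12.2 ± 1.65 CPM in *Ncr1gfp/gfp* ILC1s (mean ± SD, n = 5), and the fold change on the log2 scale was -0.58 (-0.92 to -0.24). It did not pass in edgeR's quasi-likelihood test (adjusted p = 0.0859) and did in DESeq2 (adjusted p = 0.0478) and in edgeR without a filter on low counts (adjusted p = 0.0473).

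The potassium-chloride exporter *Slc12a7*, which runs opposite to *Slc12a2* in cell volume control, differed by 0.14 (-0.01 to 0.29) on the log2 scale. *Slc26a6*, an exchanger of chloride, bicarbonate and oxalate, had the highest log2 fold change of the 169 genes, at 2.86, 4.63, 7.30, 5.96 and 5.28 CPM in *Ncr1+/+* replicates 1 to 5 and 12.5, 8.36, 6.51, 8.62 and 6.49 CPM in *Ncr1gfp/gfp* replicates 1 to 5. *Ncr1gfp/gfp* replicate 1 was far above the other libraries, and the remaining values overlapped. Its log2 fold change was 0.70 (0.18 to 1.23, adjusted p = 0.226, edgeR's quasi-likelihood test). The phosphate importer *Slc20a1* had 303 to 356 CPM in *Ncr1+/+* and 298 to 374 CPM in *Ncr1gfp/gfp* ILC1s (log2 fold change 0.05, -0.09 to 0.18). Of 10 tested partner genes of ion transport, which were sodium pump subunits, kinases that control cation-chloride carriers, and *Kcnk5*, *Car2* and *Chp1*, 3 were higher and 7 lower, none past the threshold in edgeR.

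Nucleoside, nucleobase and vitamin carriers were represented by 11 of 21 listed genes, 6 higher and 5 lower, with a median log2 fold change of 0.02. *Slc43a3*, a purine nucleobase carrier, was at 15.98, 10.5, 11.4, 13.1 and 11.5 CPM in *Ncr1+/+* replicates 1 to 5 and 11.7, 6.17, 5.40, 9.34 and 7.38 CPM in *Ncr1gfp/gfp* replicates 1 to 5. The lowest *Ncr1+/+* library was under the highest *Ncr1gfp/gfp* library. The log2 fold change was -0.65 (-1.07 to -0.23), and the adjusted p was 0.141 with all libraries and 0.0357 without *Ncr1gfp/gfp* replicate 1 (edgeR's quasi-likelihood test). *Slc28a2* had 155 to 182 CPM in *Ncr1+/+* and 167 to 192 CPM in *Ncr1gfp/gfp* ILC1s, a log2 fold change of 0.12 (-0.01 to 0.25). The equilibrative nucleoside carrier *Slc29a1* differed by -0.20 (-0.50 to 0.11), the ascorbate carrier *Slc23a2* by 0.14 (-0.06 to 0.33) and the riboflavin carriers *Slc52a2* and *Slc52a3* by -0.13 and 0.24. None of these passed the threshold.

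Mitochondrial carriers formed the largest class and had the summed level that varied least relative to its mean in both genotypes. Of its 40 genes 21 were higher and 19 lower, with a median log2 fold change of 0.03, and the sum was 1422 to 1486 CPM in *Ncr1+/+* and 1414 to 1446 CPM in *Ncr1gfp/gfp* libraries. The smallest adjusted p of the class was 0.433, for *Slc25a14*, an uncoupling protein relative, at 7.89 ± 1.23 CPM in *Ncr1+/+* and 5.74 ± 1.58 CPM in *Ncr1gfp/gfp* ILC1s (mean ± SD, n = 5) and a log2 fold change of -0.46 (edgeR's quasi-likelihood test). *Slc25a3* had 177 to 212 CPM in *Ncr1+/+* and 172 to 187 CPM in *Ncr1gfp/gfp* ILC1s (log2 fold change -0.10, -0.23 to 0.02). Among carriers of central metabolism, the citrate carrier *Slc25a1* differed by -0.06 (-0.28 to 0.16), the oxoglutarate carrier *Slc25a11* by -0.08 (-0.23 to 0.08) and the aspartate/glutamate carrier *Slc25a12* by 0.05 (-0.11 to 0.21). The NAD carrier *Slc25a51* differed by -0.02 (-0.18 to 0.13) and the glutathione carrier *Slc25a39* by -0.27 (-0.56 to 0.01). The intervals of 29 of the 40 genes lay within 1.5-fold. Of 15 tested genes of other mitochondrial transport proteins, such as the pyruvate carrier, the calcium uniporter and the outer membrane channels, 6 were higher and 9 lower, none past the threshold. *Slc25a17*, which serves peroxisomes, and *Slc25a46*, of the outer mitochondrial membrane, belong to the family by sequence and not by site.

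The nucleotide sugar class, the Slc35 family with the acetyl-CoA carrier *Slc33a1*, had 22 of 28 listed genes above the minimum, 10 higher and 12 lower, with a median log2 fold change of -0.03. Its sums were 838 to 927 CPM in *Ncr1+/+* and 865 to 886 CPM in *Ncr1gfp/gfp* libraries. Besides *Slc35f2*, none passed the threshold. The carriers of the Golgi sugars differed by -0.05 (-0.30 to 0.19) for CMP-sialic acid (*Slc35a1*), by -0.15 (-0.42 to 0.11) for UDP-galactose (*Slc35a2*), by 0.22 (0.02 to 0.42) for UDP-N-acetylglucosamine (*Slc35a3*) and by -0.12 (-0.29 to 0.04) for GDP-fucose (*Slc35c1*) on the log2 scale. For *Slc35a3* the adjusted p was 0.376 (edgeR's quasi-likelihood test).

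**Figure D5:**
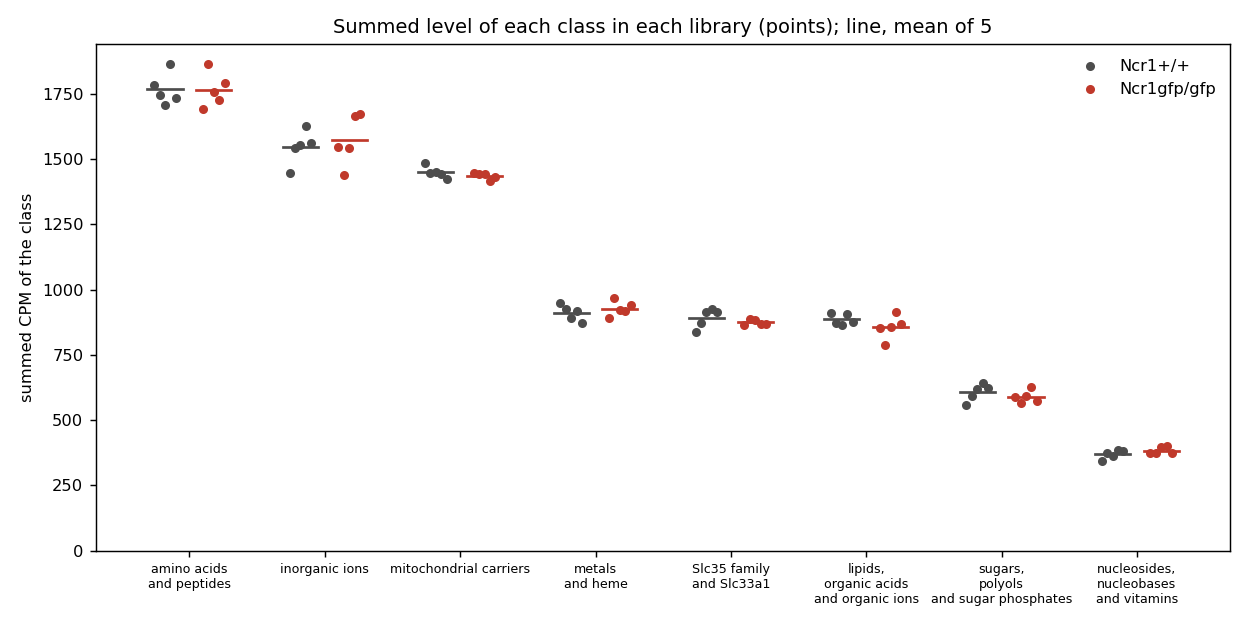
Summed CPM of each of the 8 carrier classes in each library, on an axis from 0. Points are libraries, *Ncr1+/+* in grey and *Ncr1gfp/gfp* in red, and lines are means of 5. The ranges of the genotypes overlap in every class, for example at 342 to 386 CPM in *Ncr1+/+* and 373 to 399 CPM in *Ncr1gfp/gfp* libraries for nucleosides, nucleobases and vitamins.

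The name rule also took in 5 genes whose products are not carriers, among them *Slc9a3r1*, a scaffold protein that binds sodium-proton exchangers, at 122 CPM per kb. All 5 had a log2 fold change between 0.03 and 0.08 and none passed the threshold, so that 164 of the 169 genes were carriers. Of the 169 genes 19 overlapped a listed gene on the other strand and 11 one on the same strand. None lay within 10 Mb of *Ncr1* on chromosome 7, where 3 of them are found.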

How the data were processed

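RNA of 10 liver ILC1 samples was amplified with a polyA-primed kit that does not mark the strand and sequenced as single reads. After trimming, the authors aligned to mm10 (STAR), assigned reads to genes (HTSeq) and deposited the resulting whole-number counts as they were. Counts were filtered with filterByExpr (11463 of 24564 genes kept), scaled by TMM and tested with edgeR 4.0.16 by its quasi-likelihood test for genotype, with Benjamini-Hochberg adjustment over all tested genes. Standard errors and 95% intervals come from that fit. The test was tried on simulated data with known changes. DESeq2 1.42.0, limma 3.58.1 (voom), other scalings and filters, a replicate block and leaving out each library were run as alternatives.

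The solute carriers, classes, partner and marker lists were chosen with earlier results of these data known. Named genes were those with an adjusted p under 0.05, the most abundant and the most changed gene of each class, 12 nutrient transporters of lymphocytes and genes next to the count minimum. After values were seen, 5 genes that are not carriers were moved to a class of their own. Gene coordinates are those deposited with the counts, for which no build is named. They are not those of mm10 (GRCm38), the build the study's methods name for alignment. No pair of libraries of a genotype agreed within sampling noise. The CPM given for 3 counts covers counting error only. Sequences were not analysed here, and values of some single genes are not reported here.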

Additional observations from a re-analysis of the deposited data

Results flagged for a closer look

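In 94 groups of 5 libraries that were examined, 3 single libraries stood apart from the other 4 by Dixon's criterion, where chance alone gives about 4.7. *Slc27a6* was 15.6 CPM in *Ncr1gfp/gfp* replicate 2, against 23.3 to 26.2 CPM in the other 4 *Ncr1gfp/gfp* libraries. *Slc2a1* was 48.3 CPM in *Ncr1gfp/gfp* replicate 1, against 39.6 to 41.6 CPM in the others. *Slc38a7* was 19.1 CPM in *Ncr1+/+* replicate 1, against 23.2 to 24.3 CPM in the others.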

How the results depend on the processing

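Of the genes named, 38 were refitted under 18 alternatives. Of 684 values 661 kept direction and side of the threshold, 11 lost the call (each of them *Slc35f2*) and 4 gained it. Another 8 values changed sign, all close to 0 or at few counts. With 1 library left out, the log2 fold change ran from -0.055 to 0.0080 for *Slc3a2*, from -0.46 to 0.031 for *Slc22a21* and from -0.39 to 0.25 for *Slc25a47*, and that of *Slc22a21* was 0.028 with limma-voom and 0.16 without *Ncr1+/+* replicate 1 and *Ncr1gfp/gfp* replicate 3. DESeq2 and edgeR without a filter called 3 of the 169 genes, adding *Slc12a2*. At an adjusted p under 0.05 these 2 settings gave 299 and 264 of all genes, against 155 in edgeR with the filter. Without a filter 131 of all genes were called, and with an absolute log2 fold change above 1, 23 of all genes and 0 of the 169 were. In the fits without 1 library, 1 to 2 of the 169 genes were called, 1 to 2 were lower and 0 to 1 higher at an adjusted p under 0.05, the higher one being *Slc36a1* without *Ncr1gfp/gfp* replicate 1. Of all tested genes, 100 to 160 had an adjusted p under 0.05 in those fits. Without *Ncr1+/+* replicate 1 and *Ncr1gfp/gfp* replicate 3, the libraries with the highest hepatocyte markers, 1 gene was called and 1 was lower, *Slc27a6* in both cases. There 95 of all tested genes had an adjusted p under 0.05.

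With the replicate block, the paired fit by replicate number, 1 gene was called and 1 was lower, again *Slc27a6*, while *Slc35f2* had an adjusted p of 0.0621. Of all tested genes 156 had an adjusted p under 0.05 in that fit. Same-numbered libraries did not deviate together (correlations -0.03 to 0.05), and 1 of 5 correlated best with its own number. The 6 genes without overlap were also found with 2 other scalings, and the rule kept 164 to 174 genes at count minimums of 20 and 5. For 14 of the 169 genes, *Slc27a6* and *Slc35f2* among them, the interval reached beyond 2-fold.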
